A study of Sus scrofa with 16 samples.

Results

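The insulin-like growth factor (IGF) system was followed in the left ventricle of young pigs, through the transcripts of its growth factors, receptors and binding proteins. Members were taken by symbol as IGF1, IGF2, IGF1R, IGF2R and IGFBP2, IGFBP3, IGFBP4, IGFBP5, IGFBP6 and IGFBP7, and 9 of these 10 genes had a line among the 22629 genes of the files. IGF2 had no line under its symbol or under an identifier that the name tables pair with it, so its level was not analysed here. RNA-seq libraries came from 8 pigs, all operated at 30 days of age and killed 4 weeks later. In 4 pigs (ischemia/reperfusion, IR) the left anterior descending coronary artery was closed for 1 h and reopened, and in 4 sham-operated pigs the same suture was placed and never tightened. Each pig gave 1 library of the scar zone, which lies just below the suture, and 1 of the adjoining border zone, so each of the 4 groups held 4 libraries from 2 females and 2 males. Scar zone samples of IR pigs were not pure scar, since viable muscle was included, and sham-operated pigs have no scar, so that zone is defined there by its position alone.

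IGF1 signals through IGF1R, a receptor tyrosine kinase that supports growth and survival of cardiomyocytes. IGF2R takes up IGF2 for breakdown and carries enzymes to the lysosome. The binding proteins hold the growth factors in blood and in the matrix, and proteases that cut the binding proteins set the growth factors free.

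Library totals ranged from 15427663 to 49045206 estimated counts (median 21822696), and a count of 3, taken as the limit of detection, stood for 0.0612 to 0.194 CPM, counts per 1000000 counts of a library. All 9 genes lay above this limit in every library and were tested in every comparison. Muscle transcripts marked the tissue as labelled, with TNNI3 (cardiac troponin I) at 4316 to 9608 TPM, transcripts per 1000000. The IR scar zone library of pig 14, a female, held the Y-linked transcript DDX3Y at 4.48 CPM, against 0.389 to 1.23 CPM in the 7 other libraries of females and 68.4 to 103 CPM in the 8 libraries of males. KDM5D, also Y-linked, was at 0.408 CPM there and at 0 in the 7 others. These levels were 5.53% and 6.94% of the means of the male libraries, and whether the library holds some RNA of a male pig was not tested. For the members, the scar zone fold changes and the contrasts between the sexes are therefore also given without this pig. The samples are whole tissue, in which fewer cells of a type and less RNA per cell cannot be told apart.

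Levels of the genes were compared with each other in TPM, which takes transcript length into account. IGFBP7, a matrix-bound member of the family that binds IGFs only weakly, stood far above the others in all 4 groups. Its mean was 504 ± 135 TPM in the IR scar zone, 523 ± 95 in the sham scar zone, 435 ± 63.7 in the IR border zone and 516 ± 57.6 in the sham border zone (SD, n = 4 each). IGFBP4 and IGFBP5 came next, with overlapping ranges in each group. In the sham scar zone IGFBP4 averaged 40.1 ± 7.3 TPM and IGFBP5 38.2 ± 5.92 TPM (SD, n = 4), and IGFBP4 was the higher of the pair in 2 of the 4 pigs. It was the higher in 4 of 4 pigs in the IR scar zone (61.4 against 49.8 TPM on average) and in 3 of 4 pigs in each border zone. IGFBP6, at 17.7 ± 1.41 TPM there, lay below both without overlap and overlapped with IGF2R at 17.1 ± 3.31 TPM. IGF2R in turn exceeded IGF1R in 4 of 4 pigs. IGF1R (12.6 ± 0.222 TPM) and IGF1 (11.3 ± 1.8 TPM) overlapped, as did IGFBP2 (7.78 ± 3.75 TPM) with IGF1. IGFBP3, the main carrier of IGFs in blood, was lowest at 4.65 ± 0.841 TPM.

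The order of the mean levels was nearly the same in the other groups. In the IR scar zone the ranges of all neighbours below IGFBP7 overlapped, from IGFBP4 at 61.4 ± 24.8 TPM to IGFBP3 at 6.65 ± 1.09 TPM (SD, n = 4). In the IR border zone IGFBP2 stood above IGF1 (11.4 ± 8.94 against 11.1 ± 2.93 TPM), a difference far within the spread, and in the sham border zone IGF2R stood above IGFBP6 (15 ± 2.66 against 13.6 ± 4.97 TPM).

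As a share of the summed TPM of the 6 binding proteins, IGFBP7 made up 82.6 ± 3.03% in the sham scar zone and 75.8 ± 4.42% in the IR scar zone (SD, n = 4 each). The share of IGFBP4, a binding protein known to hold back IGF action, was 8.36 to 10.1% in the 4 IR scar zone libraries and 4.97 to 8.08% in the 4 sham ones. These ranges did not overlap, which held for 1 of the 12 shares compared (6 genes in each zone), while those of the IGFBP4 level itself did. In the border zone the share of IGFBP4 was 6.6 to 8.64% after IR and 5.34 to 7.89% in sham-operated pigs, with overlap. IGFBP6, which prefers IGF2 to IGF1, took 3 to 10% in the IR scar zone and 2.42 to 3.59% in the sham scar zone. The summed TPM of the binding proteins was 674 ± 215 in the IR scar zone, 631 ± 100 in the sham scar zone, 545 ± 74.5 in the IR border zone and 621 ± 55.2 in the sham border zone (SD, n = 4 each), with overlapping ranges.

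**Figure D1:**
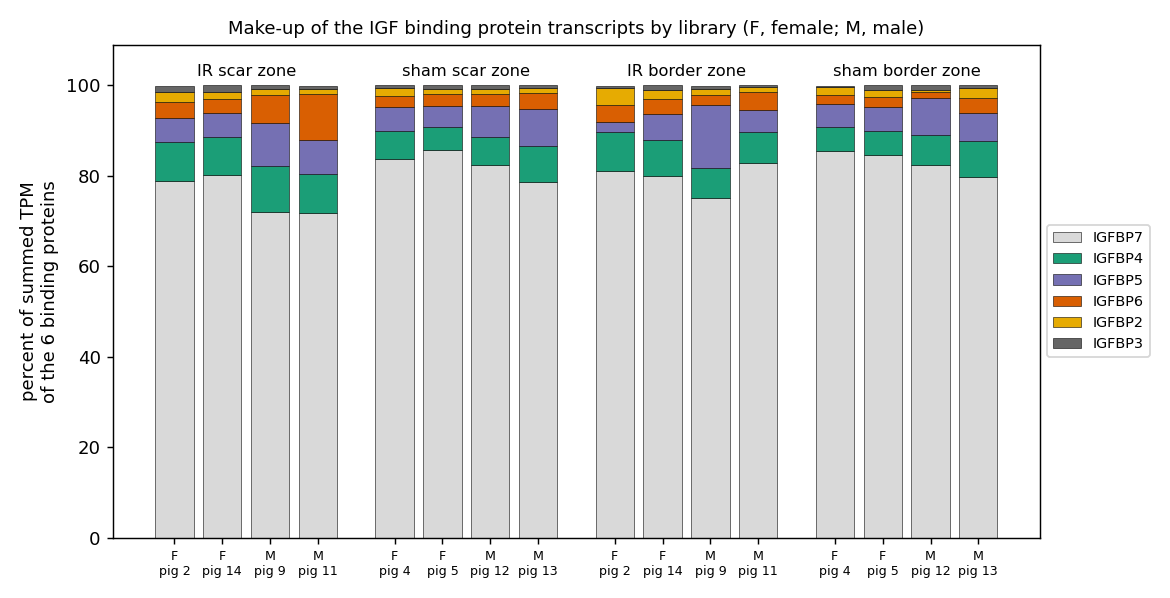
Stacked bars give, for each of the 16 libraries, the percent of the summed TPM of the 6 measured IGF binding proteins that each gene held, with the pigs ordered by sex in each group. IGFBP7 fills most of every bar, and the IGFBP4 band is wider in the 4 IR scar zone libraries (8.36 to 10.1%) than in the 4 sham scar zone libraries (4.97 to 8.08%). Of the 12 shares compared between IR and sham-operated pigs, 1 had no overlap.

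The comparison of IR with sham-operated pigs in the scar zone asks what injury left behind at its site 4 weeks later. No member reached an adjusted p of 0.05 together with a fold change of 2 in edgeR (quasi-likelihood, p-values adjusted after Benjamini and Hochberg over 14023 genes), and neither did any other gene (0% of those tested). The smallest adjusted p of all genes was 0.414. At an unadjusted p of 0.05 or less, 1 of the 9 members stood out, IGFBP6, against 11.2% of all genes tested. IGFBP6 lost that p with sex as a covariate, without pig 4, 5, 9, 11, 12 or 13, and with limma on TPM, where IGFBP3 was the 1 member at that p. Without pig 14 the members at that p were IGFBP6, IGFBP4 and IGF1R (3 of 9), beside 16.7% of all genes in the same fit. The members at that p were IGFBP2 and IGFBP4 without pig 4 (8.23% of all genes), IGF1 and IGFBP6 without pig 2 (18.2%), and IGFBP6 and IGF1R with 1 factor of unwanted variation (16.8%). The median log2 fold change of the members was 0.27, with 7 positive and 2 negative, beside 0.03 over all genes tested. The IR and sham values of each member overlapped, while 4.87% of all genes had no overlap.

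IGF1, the only ligand measured, varied more between IR pigs than between the surgeries. In the IR scar zone it was at 3.27 CPM in pig 2, 7.88 in pig 14, 18.1 in pig 9 and 10.5 in pig 11. In the sham scar zone it was at 6.91, 6.76, 8.6 and 7.05 CPM in pigs 4, 5, 12 and 13. The 2 IR males thus lay above all sham pigs, female 2 lay below all of them, and female 14 lay within their range. The log2 fold change was 0.45 (SE 0.41, edgeR adjusted p = 0.639), and it was -0.03 without pig 9, 0.74 without pig 2 and 0.55 without pig 14.

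Both receptors differed little between the surgeries. IGF1R was at 63.3, 67.7, 55.8 and 49.5 CPM in the IR scar zone of pigs 2, 14, 9 and 11, and at 63.5, 72.4, 69.3 and 78.9 CPM in the sham scar zone of pigs 4, 5, 12 and 13. In 3 of 4 IR pigs IGF1R lay below all sham pigs, with a log2 fold change of -0.26 (SE 0.13, edgeR adjusted p = 0.468) that was between -0.34 and -0.19 when any 1 pig was left out. The exact two-sided permutation test of the log2 CPM of IGF1R gave p = 0.0571, where 4 pigs against 4 can give 0.0286 at the least. Without pig 14 it was -0.34. IGF2R ranged from 120 to 142 CPM in IR pigs and from 107 to 150 CPM in sham-operated pigs, a log2 fold change of 0.02 (SE 0.14) that was 0.07 without pig 14.

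IGFBP6 gave the greatest fold change among the binding proteins in the scar zone. Its level was 17.1 CPM in pig 2, 12.5 in pig 14, 33 in pig 9 and 58.8 in pig 11 after IR. The sham-operated pigs 4, 5, 12 and 13 were at 15.5, 15.8, 14.5 and 17.8 CPM. The 2 IR males were above all sham pigs, while female 2 was within their range and female 14 below it. The log2 fold change was 0.94 (SE 0.41, unadjusted p = 0.0458, edgeR adjusted p = 0.441). It was 0.41 without pig 11 and 1.19 without pig 14, and the exact two-sided permutation test of the log2 CPM gave p = 0.343.

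IGFBP4 was next in size among the binding proteins. It was at 77, 62.4, 99.6 and 88.8 CPM in the IR scar zone of pigs 2, 14, 9 and 11 and at 73.1, 54.8, 56.3 and 71.7 CPM in the sham scar zone of pigs 4, 5, 12 and 13. In 3 of 4 IR pigs it exceeded every sham pig. Its log2 fold change of 0.36 (SE 0.17, edgeR adjusted p = 0.453) ranged from 0.24 to 0.47 when 1 pig was left out, 0.47 being the value without pig 14.

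IGFBP5, a binding protein that adheres strongly to the matrix, parted by pig in the IR group. It was at 147 and 132 CPM in IR females 2 and 14, at 305 and 257 CPM in IR males 9 and 11, and at 194, 164, 194 and 236 CPM in sham-operated pigs 4, 5, 12 and 13. Both IR males were above all sham pigs and both IR females below them, so the log2 fold change over the group was 0.10 (SE 0.27). It turned to -0.15 without pig 9 and to -0.01 without pig 11, and was 0.26 without pig 14.

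The 2 surgeries overlapped in the remaining binding proteins. IGFBP3 was at 7.86, 7.07, 4.47 and 4.61 CPM in IR pigs 2, 14, 9 and 11, where the 2 females exceeded every sham pig (3.76 to 5.76 CPM), with a log2 fold change of 0.34 (SE 0.25, edgeR adjusted p = 0.584). It was 0.17 without pig 2 and 0.25 without pig 14, and limma on log2(TPM + 1) gave 0.44 (unadjusted p = 0.037, limma adjusted p = 0.596). IGFBP2 ranged from 15.4 to 24.5 CPM after IR and from 10.7 to 25 CPM in sham-operated pigs, a log2 fold change of 0.27 (SE 0.28). This value was 0.12 without pig 2 or 13, 0.13 without pig 12, 0.59 without pig 4 and 0.36 without pig 14. IGFBP7 ranged from 433 to 548 and from 458 to 523 CPM, a log2 fold change of -0.03 (SE 0.12) that was 0.00 without pig 14.

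On the TPM scale, where limma was run on log2(TPM + 1), the median of all genes itself was 0.15 in the scar zone. The log2 changes above are therefore relative to the TMM scaling of the estimated counts, under which that median was 0.03.

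**Figure D2:**
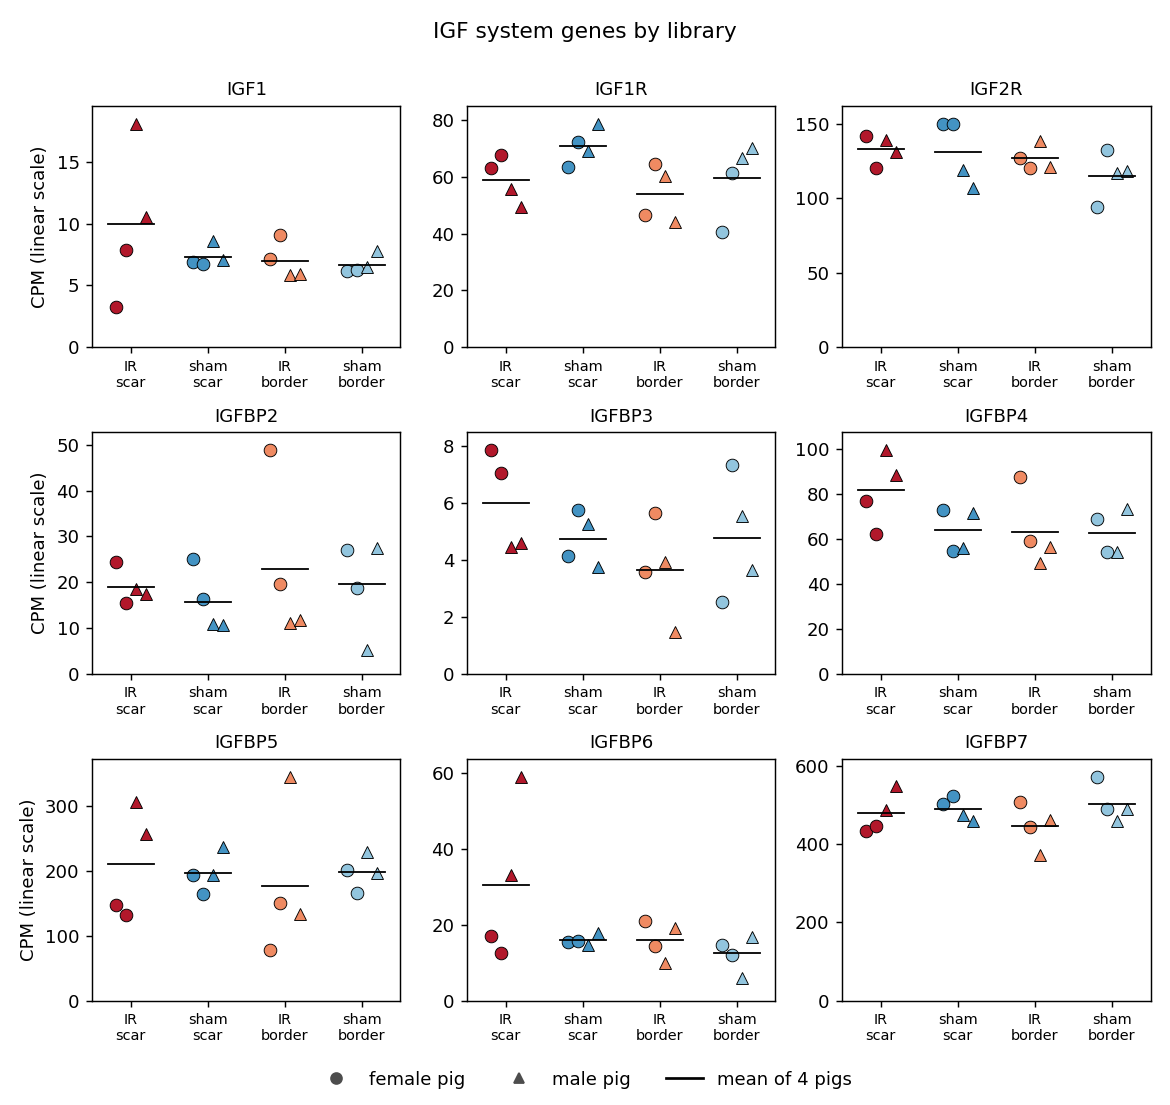
Each panel gives 1 gene in CPM on a linear axis from 0, with circles for female pigs, triangles for male pigs and a line at the mean of the 4 pigs of a group. The 2 IR males are the highest points of the IR scar zone for IGF1, IGFBP4, IGFBP5 and IGFBP6, while IGFBP7 and IGF2R stay in similar ranges in all groups.

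In the border zone no member passed the test at the adjusted threshold, nor did any other gene (0%), and the smallest adjusted p was 0.497. None of the 9 members reached an unadjusted p of 0.05 with edgeR, where 3.78% of all genes did (without pig 9, IGFBP5 did, beside 6.94% of all genes), and none had IR and sham values without overlap, where 2.05% of all genes did. The median log2 fold change of the members was 0.01.

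IGF1 was at 7.14, 9.06, 5.88 and 5.94 CPM in the IR border zone of pigs 2, 14, 9 and 11 and at 6.17, 6.23, 6.51 and 7.8 CPM in the sham border zone of pigs 4, 5, 12 and 13. Here the 2 IR males lay below all sham pigs, and the log2 fold change was 0.06 (SE 0.19). IGFBP6 was at 20.9, 14.3, 9.9 and 19 CPM after IR and at 14.6, 12.1, 6.02 and 16.8 CPM in sham-operated pigs, a log2 fold change of 0.38 (SE 0.32, edgeR adjusted p = 0.988) that was 0.15 without pig 12 and 0.22 without pig 2. The 2 groups overlapped, with 2 IR pigs above all sham pigs.

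IGFBP5 was at 77.4, 150, 344 and 134 CPM in the IR border zone of pigs 2, 14, 9 and 11 and at 166 to 229 CPM in the sham border zone. In 3 IR pigs it lay below all sham pigs and in pig 9 above all of them, so the log2 fold change of -0.18 (SE 0.36) became -0.71 without pig 9 and 0.08 without pig 2. IGFBP2 was highest in the IR border zone of pig 2 (48.8 CPM), with the 3 other IR pigs at 11.1 to 19.6 CPM and the sham-operated pigs at 5.2 to 27.4 CPM, and its log2 fold change of 0.21 (SE 0.56) turned to -0.48 without pig 2 and to -0.10 without pig 12. IGFBP3 had a log2 fold change of -0.40 (SE 0.43), IGFBP7 of -0.18 (SE 0.14), IGF1R of -0.15 (SE 0.19), IGF2R of 0.13 (SE 0.13) and IGFBP4 of 0.01 (SE 0.19), the last of which turned to -0.01 with upper-quartile scaling. Leaving out 1 pig moved IGFBP3 between -0.69 (without pig 14) and -0.11 (without pig 5), IGFBP7 between -0.25 and -0.09 (without pig 9), IGF1R between -0.30 (without pig 4) and -0.07 (without pig 11 or 13), and IGF2R between 0.05 (without pig 4) and 0.21 (without pig 5).

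**Figure D3:**
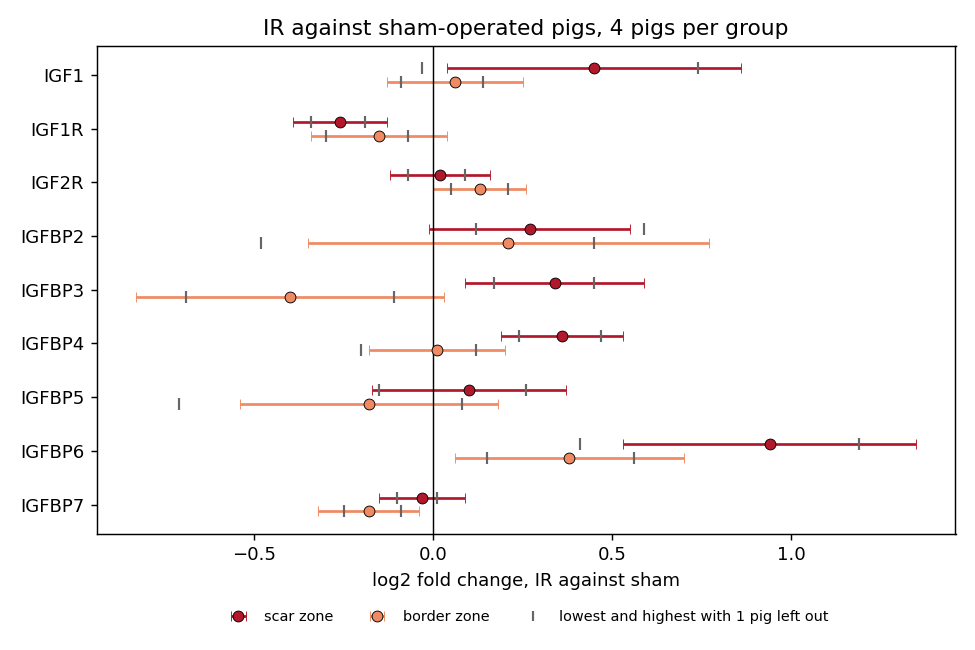
Points give the log2 fold change of IR against sham-operated pigs from edgeR with 1 SE to each side, in the scar and border zones, and grey ticks mark the lowest and highest values with 1 pig left out. IGFBP6 in the scar zone has the greatest value, 0.94, which ranges from 0.41 to 1.19 when 1 pig is left out.

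The zones were compared within each surgery to ask whether the injured region differed from its neighbourhood. In IR pigs no gene was called at the adjusted threshold (0%), and no member reached an unadjusted p of 0.05 with edgeR, where 4.35% of all genes did. This count depended on the pigs and the fit. Without pig 2 it was 3 (IGF1, IGFBP6 and IGFBP4, beside 5.38% of all genes) and without pig 14 it was 1 (IGFBP6, beside 5.2%), while DESeq2 and the fit of all 16 libraries each gave IGFBP6, and sex as covariate, 1 factor of unwanted variation and limma each gave IGFBP3, beside 1.64 to 6.91% of all genes in these fits. In sham-operated pigs the count was likewise 0 (0% of all genes at the adjusted threshold, and 0.819% of all genes at the unadjusted p). Because scar and border zone libraries of a pig deviated together from their group means, the same comparisons were also made with the pig as a replicate block. The paired fit left no member at the adjusted threshold, but brought IGFBP3 to an unadjusted p of 0.0246 in IR pigs (log2 fold change 0.82, edgeR adjusted p = 0.431), where 11.3% of all genes passed the unadjusted p. In sham-operated pigs the replicate block brought IGF1R (log2 fold change 0.26, edgeR adjusted p = 0.931) and IGFBP6 (log2 fold change 0.42, edgeR adjusted p = 0.931) to an unadjusted p of 0.05 or less, beside 4.77% of all genes.

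In 4 of 4 IR pigs IGFBP3 was higher in the scar zone than in its border. Its difference in log2 CPM was 1.12 in pig 2, 0.31 in pig 14, 0.18 in pig 9 and 1.61 in pig 11. In sham-operated pigs 4, 5, 12 and 13 it was 0.69, -0.35, -0.07 and 0.05, so 1 sham-operated pig lay among the IR pigs. The exact two-sided permutation test of these differences between the surgeries gave p = 0.143.

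IGF1 and IGFBP6 moved between zones in opposite directions in IR males and IR females. For IGFBP6 the difference in log2 CPM was -0.29 in female 2, -0.19 in female 14, 1.73 in male 9 and 1.62 in male 11, and 0.09 to 1.25 in the sham-operated pigs. For IGF1 it was -1.11, -0.20, 1.61 and 0.82 in the same IR pigs, and -0.15 to 0.40 in the sham-operated pigs. IGFBP4 differed by 1.01 in male 9 and 0.65 in male 11, and by -0.19 in female 2 and 0.08 in female 14, whereas the sham-operated pigs had a mean of 0.03 with an SD of 0.05 (n = 4).

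**Figure D4:**
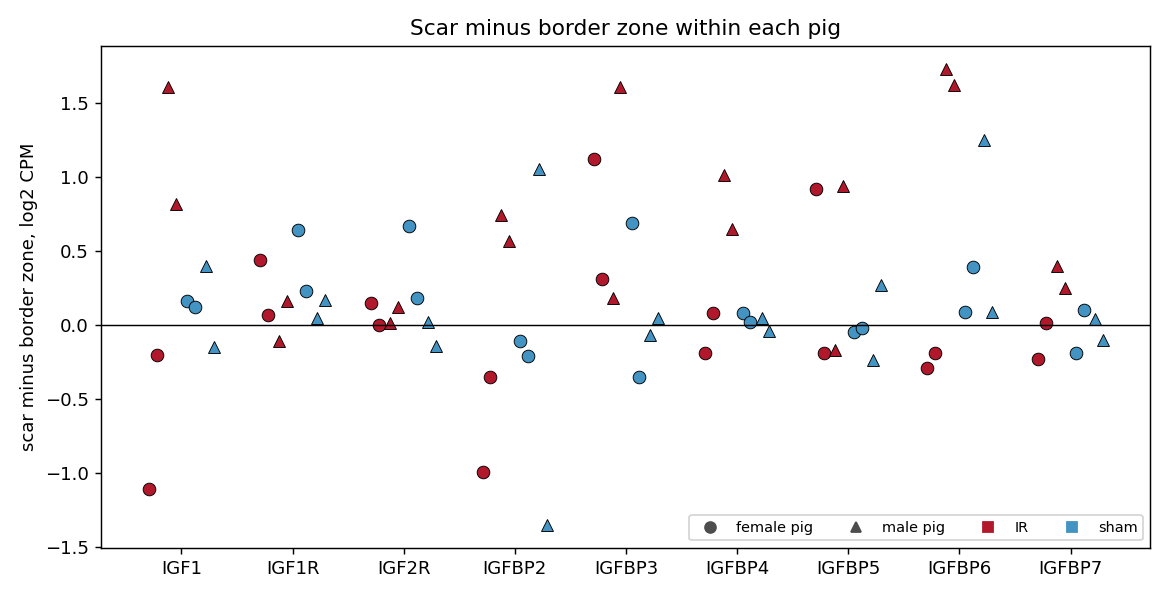
The y axis gives the scar minus border zone difference in log2 CPM within each of the 8 pigs, with IR pigs in red, sham-operated pigs in blue, circles for females and triangles for males. For IGF1, IGFBP2 and IGFBP6 the red triangles lie above 0 and the red circles below it.

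The IR effect was also compared between zones over all 16 libraries. No gene was called (0%), no member reached an unadjusted p of 0.05 with edgeR (2.22% of all genes did, and without pig 2 IGFBP4 did, beside 4.43%), and none did with the pig as replicate block (6.99% of all genes did). The greatest difference among the members was that of IGFBP3, with a log2 value of 0.74 (SE 0.53, edgeR adjusted p = 1).

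Since the males stood apart after IR, the IR effect was compared between the sexes, a test added after seeing these values. Each sex held 2 pigs per surgery, so a difference between sexes and a difference between individual pigs cannot be told apart. In the scar zone 210 genes (1.5% of those tested) differed at the adjusted threshold with a fold change of 2, none of them a member, and this count fell to 1 without sham pig 12 or 13, to 29 without sham pig 4, to 52 without sham pig 5, to 40 without IR pig 14, to 123 without IR pig 9 and to 138 without IR pig 2. At an unadjusted p of 0.05 or less, 3 of 9 members (IGFBP6, IGFBP5 and IGF2R) differed, beside 18.7% of all genes. This count of members was 1 to 4 when 1 pig was left out, being 1 without pig 12 (IGFBP6), and it was 7 with limma on TPM under the TPM filter. In those limma fits 21.2 and 21.7% of all genes passed, and the median difference of all genes was itself 0.43 and 0.38.

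The IR effect on IGFBP6 was higher in males by a log2 value of 1.59 (SE 0.40, unadjusted p = 0.00375, edgeR adjusted p = 0.090), with both IR males above all sham pigs. Over the alternatives the value ranged from 1.12 to 1.97 and the adjusted p from 0.00601 with DESeq2 to 0.255 with edgeR without pig 12. The corresponding value was 0.76 for IGFBP5 (SE 0.24, edgeR adjusted p = 0.147), 0.46 for IGF2R (SE 0.20, edgeR adjusted p = 0.256) and 1.19 for IGF1 (SE 0.57, edgeR adjusted p = 0.309). Without pig 14 these became 1.38 for IGFBP6, 0.67 for IGFBP5, 0.34 for IGF2R and 1.93 for IGF1, which was 0.68 without pig 2 and 0.75 without pig 9. The other members, also without pig 14, were at 0.48 (IGFBP2), 0.39 (IGFBP7), 0.29 (IGFBP4), -0.4 (IGF1R) and -0.67 (IGFBP3). With all pigs, 7 of the 9 members had a positive value and 2 a negative value. In the border zone 2 genes (0.0146%) differed between the sexes at the adjusted threshold, none of them a member, and this count was 0 without pig 4 or 5, 1 without pig 9 or 11, 4 without pig 2 and 6 without pig 14. No member reached an unadjusted p of 0.05 with edgeR, where 6.89% of all genes did. Leaving out 1 pig brought 1 member to that p in 4 of 8 cases (IGF1 without pig 2, IGFBP5 without pig 11, IGFBP2 without pig 12 and IGFBP4 without pig 14), beside 4.14 to 9.49% of all genes, and limma gave 2 (IGF1 and IGFBP4), beside 6.66 to 6.8%.

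The enzymes that cut the binding proteins were read from a list of 9 proteases and inhibitors, of which 8 were tested in the scar zone. At an unadjusted p of 0.05 with a fold change of 2, 1 was higher and 0 were lower in IR pigs, beside 3.35% of all genes, and the list had a median log2 fold change of 0.49. The higher gene was ADAM12, a metalloprotease that cuts IGFBP3 and IGFBP5. It was at 5.28, 5.84, 77.1 and 36.1 CPM in the IR scar zone of pigs 2, 14, 9 and 11 and at 4.25 to 7.04 CPM in the sham scar zone. Only the 2 IR males exceeded the sham range, with a log2 fold change over the group of 2.53 (SE 0.78, edgeR adjusted p = 0.438). It was 1.53 without pig 9 and 2.86 without pig 14, and 1.34 with limma on log2(TPM + 1) without the TPM filter.

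The sex comparison called ADAM12 and PAPPA from this list. The IR effect on ADAM12 in the scar zone was higher in males by a log2 value of 3.46 (SE 0.56, edgeR adjusted p = 0.0361). PAPPA, the protease of IGFBP4, was at 0.344 and 0.543 CPM in IR females 2 and 14, at 4.54 and 2.59 CPM in IR males 9 and 11, and at 1.5, 1.73, 0.47 and 0.99 CPM in sham-operated pigs 4, 5, 12 and 13, a log2 difference between the sexes of 4.17 (SE 0.73, edgeR adjusted p = 0.0403). Leaving out 1 pig lost the call of ADAM12 in 6 of 8 cases and that of PAPPA in 7 of 8 cases, while the log2 differences stayed at 2.82 to 3.91 and 3.71 to 4.79. Of 5 other settings, 2 lost each call, and with limma on log2(TPM + 1) without the TPM filter the difference in PAPPA was 0.99 (limma adjusted p = 0.125). Without pig 14 the log2 difference was 3.52 for ADAM12 (edgeR adjusted p = 0.104) and 4.50 for PAPPA (edgeR adjusted p = 0.103). PAPPA2, a related protease of IGFBP3 and IGFBP5 named here after its values were seen, had 194 estimated counts in the IR scar zone of pig 11 and 41 in that of pig 9, against 1 to 19 in the other libraries. STC2, which blocks PAPPA, and ADAMTS1 had unadjusted p of 0.05 or less but fold changes below 2, and they too were named after their values were seen. STC2 had a log2 fold change of -0.82 (SE 0.27, edgeR adjusted p = 0.438) and ADAMTS1 of 0.59 (SE 0.23, edgeR adjusted p = 0.438), which was 0.31 without pig 11.

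Downstream of the receptors, 26 of 30 listed signalling genes were tested in the scar zone, and none had both an unadjusted p of 0.05 or less and a fold change of 2. At the unadjusted p alone there were 2 of 26, beside 11.2% of all genes. The median log2 fold change of this list was 0.00 (13 positive and 13 negative). IRS1, the adaptor that couples IGF1R to phosphoinositide 3-kinase, had the smallest p. It was at 19.7, 24.1, 19.9 and 15.5 CPM in IR pigs 2, 14, 9 and 11 and at 26.2, 28.9, 27.2 and 28.7 CPM in sham-operated pigs 4, 5, 12 and 13, so the groups did not overlap, as in 4.87% of all genes. The log2 fold change of IRS1 was -0.49 (SE 0.14, unadjusted p = 0.00638, edgeR adjusted p = 0.438), lower in 4 of 4 IR pigs and between -0.59 (without pig 14) and -0.38 when any 1 pig was left out. Limma on log2(TPM + 1) gave -0.26. In the sex comparison PIK3R2, a regulatory subunit of phosphoinositide 3-kinase, was called (log2 difference 1.61, SE 0.30, edgeR adjusted p = 0.0478), and this call was lost in 8 of 8 cases when 1 pig was left out and with 3 of 7 other settings. Without pig 14 the difference was 1.45 (edgeR adjusted p = 0.115).

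Of the growth hormone axis, through which IGF1 is made in the liver, 6 of 8 listed genes were tested. None passed the unadjusted p in the scar zone, where 11.2% of all genes did. STAT5A, a transcription factor that acts below the growth hormone receptor, had the smallest p, with a log2 fold change of 0.32 (SE 0.16, edgeR adjusted p = 0.475). IGFBP1, a binding protein of liver, had at most 3 estimated counts in any library. Among regulators tied to IGF2 and to imprinted growth control, 5 of 8 listed genes were tested, and at an unadjusted p of 0.05 with a fold change of 2 in the scar zone 0 were higher and 1 was lower, beside 3.35% of all genes. That gene was DLK1, an imprinted membrane protein of the Notch ligand family, at 1.38, 3.33, 1.16 and 1.55 CPM in IR pigs 2, 14, 9 and 11 and at 7.09, 7.37, 2.82 and 3.13 CPM in sham-operated pigs 4, 5, 12 and 13. Pig 14 overlapped with the sham males, and the log2 fold change was -1.49 (SE 0.45, edgeR adjusted p = 0.438), or -1.90 without pig 14. Limma on log2(TPM + 1) without the TPM filter gave -0.59. In the border zone no gene of the 4 pathway lists passed the unadjusted p with a fold change of 2, where 0.794% of all genes did.

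Within the IR scar zone, fibroblast transcripts were highest in the 2 males, as were IGF1, IGFBP4, IGFBP5 and IGFBP6, but not IGFBP3. All 10 listed fibroblast markers had at least 3 counts in every library, and their summed level was 24804 CPM in the IR scar zone of pig 9 and 33484 CPM in that of pig 11, but 6066 in pig 2 and 4877 in pig 14. It was 5754 to 7657 CPM in the sham scar zone, 5372 to 8093 in the IR border zone and 5366 to 7656 in the sham border zone. In the scar zone 3 of 10 fibroblast markers (COL1A1, COL1A2 and POSTN) passed the unadjusted p with a fold change of 2, beside 3.35% of all genes, and the median log2 fold change of the list was 0.85. In the test of the sexes 9 of the 10 had an unadjusted p of 0.05 or less, beside 18.7% of all genes.

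The 10 leucocyte and macrophage markers summed to 604 CPM in the IR scar zone of pig 9 and 871 CPM in that of pig 11, against 287 and 352 CPM in pigs 2 and 14 and 252 to 428 CPM in the sham scar zone. In the test of the sexes 6 of these 10 had an unadjusted p of 0.05 or less, beside 18.7% of all genes. The 8 measured cardiomyocyte markers summed to 60228 to 80507 CPM in the IR scar zone and 70731 to 98088 CPM in the sham scar zone. Of 7 epicardial and mesothelial markers 4 were measured (WT1, UPK1B, ALDH1A2 and TBX18), and they summed to 111 CPM in the IR scar zone of pig 9 and 90 CPM in that of pig 11. In the other 14 libraries this sum was 24.7 to 57.9 CPM. TBX18 passed the unadjusted p with a fold change of 2 in the scar zone (1 of 4, beside 3.35% of all genes), and 4 of 4 had an unadjusted p of 0.05 or less in the test of the sexes, beside 18.7% of all genes. Smooth muscle and pericyte markers (1170 to 1473 against 1053 to 1393 CPM), endothelial markers (899 to 1239 against 1100 to 1222 CPM) and adipocyte markers (5.43 to 13.3 against 6.38 to 14 CPM) overlapped between the IR and sham scar zones. Of the 8 smooth muscle and pericyte markers 1, the contractile protein gene CNN1, passed the unadjusted p with a fold change of 2 in both zones, with a log2 fold change of 1.17 (SE 0.43, edgeR adjusted p = 0.438) in the scar zone and 1.85 (SE 0.73, edgeR adjusted p = 0.988) in the border zone. The part of these cell types in the levels of IGF1, IGFBP4, IGFBP5, IGFBP6, ADAM12 and PAPPA was not tested. The border zone libraries of the same 2 males, at 5372 and 8093 CPM of fibroblast markers, held IGFBP6 at 9.9 and 19 CPM. For IGFBP5 the scar minus border zone difference in log2 CPM was -0.17 in male 9 and 0.94 in male 11.

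**Figure D5:**
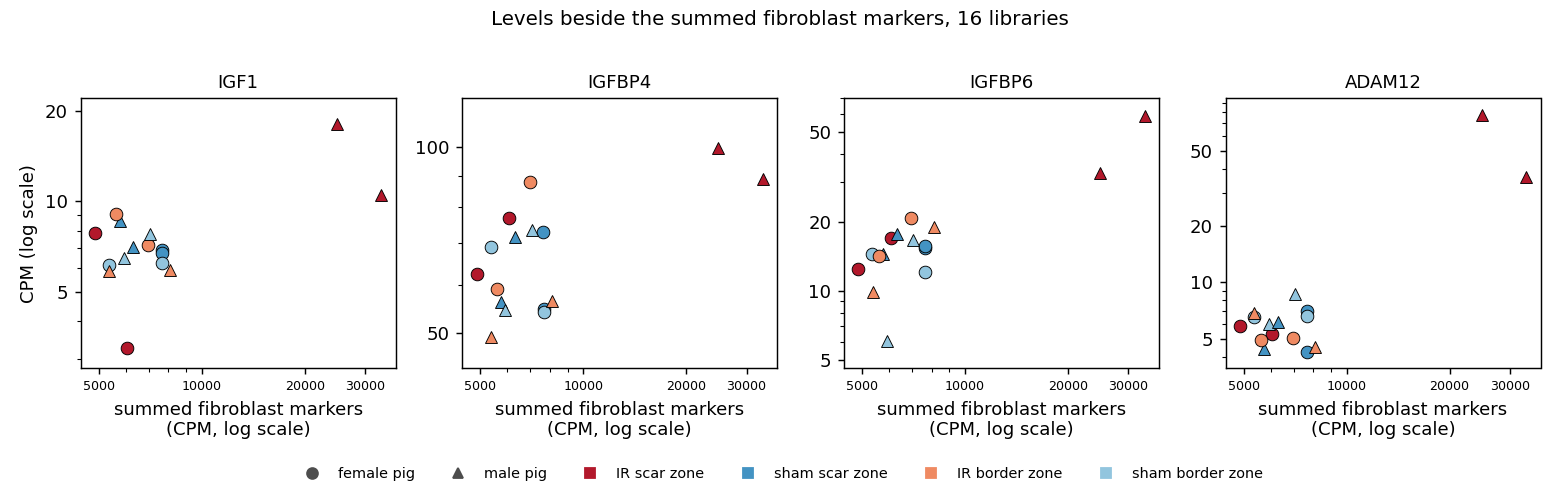
Each point is 1 of the 16 libraries, with the summed CPM of 10 fibroblast markers on a log x axis and the CPM of IGF1, IGFBP4, IGFBP6 or ADAM12 on a log y axis. The IR scar zone libraries of the 2 males lie alone at the right, at 24804 and 33484 CPM of markers, and highest for all 4 genes, while the other 14 libraries lie at 4877 to 8093 CPM.

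The genes whose log2 CPM most resembled each member over the 16 libraries were ranked among 12885 genes with a symbol, as a description in which the libraries share pigs, zones and surgeries. IGFBP6 ran closest to PI16 (Pearson r = 0.94), THY1 (r = 0.91) and DPT (r = 0.91). IGFBP4 ran closest to SFXN3 (r = 0.96), RHOU (r = 0.92) and RRBP1 (r = 0.90), and IGFBP4 and IGFBP6 had r = 0.76 with each other. IGFBP5 ran closest to PPM1M (r = 0.91), ABCA9 (r = 0.90) and BBS4 (r = 0.89). IGFBP2 and IGFBP5, which lie next to each other in the pig assembly Sscrofa11.1 with 0 annotated genes between them, had no nearest gene in common.

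For IGF1 the closest genes were MDFIC, S100PBP and ITGA8 (r = 0.84 each), and for IGF1R they were BSN, FEM1C and SOCS7 (r = 0.89 each). For IGF2R they were LTBP4 and TAS1R1 (r = 0.83 each) and MYO15A (r = 0.81). IGFBP2 ran closest to DDAH1 (r = 0.90), followed by RARA (r = 0.82) and R3HDM4 (r = 0.81). IGFBP3 ran closest to INTS7 (r = 0.85), ICAM5 (r = 0.84) and TRRAP (r = 0.83), and IGFBP7 to EIF4A1 (r = 0.82), PLEKHO1 (r = 0.80) and RHOA (r = 0.80). Spearman's rho was 0.56 to 0.71 for the 3 genes of IGF1 and 0.66 to 0.95 for those of the other members.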

How the data were processed

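Per the labels and the study's methods, the authors trimmed reads with Trimmomatic 0.33, and the processing notes also name HISAT2 2.0.5 and kallisto 0.43.1. The authors deposited, per gene and library, estimated counts that need not be whole and TPM; the genome build is not given in the sources used here. An estimated count shares reads among transcripts that match them equally, so values of similar genes can trade reads. Of the gene rows, 15095 carry a symbol and 7534 an Ensembl identifier, and name tables paired 889 of the latter with a symbol. Members and lists were chosen with earlier results of these data known.

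The estimated counts were rounded and tested with edgeR 4.0.16 (R 4.3.3) by quasi-likelihood, with TMM scaling, a filter on low counts (minimum 10 in enough libraries and 15 in total), and Benjamini-Hochberg adjustment over all genes tested, calling genes at an adjusted p of 0.05 and a fold change of 2. The study's methods name a fold change of 2 with an adjusted p or p of 0.05, without saying which. At the unadjusted p with that fold change, 470 genes (3.35%) and 0 members passed in the scar zone. Only the groups compared entered a fit, and all 16 libraries entered the difference between zones. CPM use TMM-scaled totals, and log2 CPM a prior count of 2. SE are those implied by the test statistic. Single values were compared with exact two-sided permutation tests (27 in all), where 4 against 4 can give no p below 0.0286. The p-values of IR against sham within a zone and of the permutation tests measure the spread between pigs, 4 per group. Without the replicate block, the fits between zones and of the difference between zones treat the 2 libraries of a pig as separate. The p-values of the sexes rest on 2 pigs per sex and surgery.

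The fits were also run on simulated counts with known changes. The outcome of that run is not given here, so no conclusion about the fits is drawn from it. Scar and border zones of a pig come from the same animal, and their deviations from the group means correlated by 0.38 to 0.69 in IR and 0.49 to 0.79 in sham-operated pigs, so a fit with the pig as replicate block was made too.

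All members were named. Of the 4 pathway lists, genes at an unadjusted p of 0.05 and a fold change of 2 in either zone were named, or otherwise the gene with the smallest p in the scar zone, and for each member the 3 genes with the highest Pearson r. Any further gene was picked with its values in view. The settings varied were DESeq2 1.42.0, upper-quartile scaling, no filter, sex as covariate, 1 factor of unwanted variation from 5000 control genes, limma 3.58.1 on log2 TPM with pseudocounts of 1 and 0.1 (TPM of at least 1 in 4 libraries, or no filter), 1 fit of all libraries, and leaving out each pig. Counts limit precision only for low genes, and intervals of counting error are not given.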

Additional observations from a re-analysis of the deposited data

Results flagged for a closer look

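IGF1 in the sham scar zone of pig 12 was at 8.6 CPM, apart from the 3 other pigs of its group at 6.76 to 7.05 CPM. It was the 1 library found apart in 36 groups of 4, where chance flags about 1 in 20 groups.

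In IR pigs the scar minus border zone difference was positive in both males and negative in both females for 3 genes. The mean of the males exceeded that of the females by a log2 value of 1.87 for IGF1, 1.33 for IGFBP2 and 1.92 for IGFBP6. Against female 2 alone, without pig 14, these values were 2.32, 1.64 and 1.97. These are 3 of 18 such contrasts looked at (9 genes in each surgery), each rests on 2 pigs per sex, and the difference was not tested.

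In the test of the sexes, the IR effect in the scar zone was higher in males by a log2 value of 4.17 for PAPPA, 3.46 for ADAM12 and 1.61 for PIK3R2, each past the adjusted threshold with edgeR. Leaving out 1 pig gave an adjusted p of up to 0.142 for PAPPA, 0.14 for ADAM12 and 0.153 for PIK3R2. The summed fibroblast markers of the 2 IR males in the scar zone were 24804 and 33484 CPM. Their summed epicardial and mesothelial markers were 111 and 90 CPM, and their leucocyte and macrophage markers 604 and 871 CPM. All of these sums were above those of the other 14 libraries. The part of these lists in the differences between the sexes was not tested.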

How the results depend on the processing

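No member was called in the 5 comparisons of surgery and zone under any setting. Of 771 recomputed log2 fold changes (9 members in these comparisons and 4 in the test of the sexes in the scar zone), 710 kept their direction and their side of the threshold, 56 changed sign, and 5 reached the threshold, all of IGFBP6 between the sexes. Those of the sexes in the border zone were not counted here. Nor were those of IGFBP7 between the sexes in the scar zone, which limma with the TPM filter called. The causes were not tested.

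Over all genes, where edgeR called 0, DESeq2 called 64 in the scar zone, 4 in the border zone, 3 between zones in IR pigs and 1 in sham-operated pigs. Limma called 3 with log2(TPM + 1), 1 with log2(TPM + 0.1) and 1 without the TPM filter in the scar zone, 2 with each of these between zones in IR pigs, and 1 with log2(TPM + 1) with or without the filter in sham-operated pigs. In the scar zone comparison of the sexes, the 210 genes became 691 with DESeq2, 430 without the filter, 62 with 1 factor of unwanted variation, 433, 352 and 107 with limma on TPM, and 1 to 138 among the fits short of 1 pig that moved by over 1.5 times. Its members called became 1 with DESeq2, without the filter and without pig 9 (IGFBP6), and 2 with limma on log2(TPM + 1) and on log2(TPM + 0.1) (IGFBP6 and IGFBP7), but stayed at 0 with limma without the TPM filter. The 2 genes of the border zone became 44 with DESeq2, 10 without the filter on low counts, 5 with 1 factor of unwanted variation, 5, 4 and 8 with the 3 limma fits, and 0 to 6 when 1 pig was left out; upper-quartile scaling kept the count at 2.

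With 1 factor of unwanted variation, the sign turned for IGFBP5 in the scar zone (-0.01), for IGFBP2 (-0.06) and IGFBP4 (-0.05) in the border zone and for IGFBP2 between zones in IR pigs (0.03). IGFBP4 in the border zone was also -0.01 with upper-quartile scaling and with sex as covariate. With limma on log2(TPM + 1), on log2(TPM + 0.1) and without the TPM filter, in this order, IGFBP2 between zones in IR pigs was 0.12, 0.15 and 0.12. Between zones in sham-operated pigs, IGFBP3 was 0.06, 0.09 and 0.06, IGFBP5 was 0.000579, 0.000585 and 0.000579, and IGFBP7 was 0.0063, 0.00629 and 0.0063. When the IR effect was compared between zones, IGF1R was 0.04, 0.05 and 0.04 and IGF2R 0.04 in all 3. With the pig as replicate block, IGFBP2 between zones was 0.00747 in IR pigs and IGFBP3 was 0.05 in sham-operated pigs; the paired fit changed no call.

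Leaving out each pig in turn gave, in the scar zone, -0.03 to 0.74 for IGF1, -0.07 to 0.09 for IGF2R, -0.15 to 0.26 for IGFBP5 and -0.10 to 0.01 for IGFBP7. In the border zone it gave -0.09 to 0.14 for IGF1, -0.48 to 0.45 for IGFBP2, -0.20 to 0.12 for IGFBP4 and -0.71 to 0.08 for IGFBP5. Between zones it gave -0.01 to 0.83 for IGF1 and -0.47 to 0.29 for IGFBP2 in IR pigs, and -0.50 to 0.02 for IGFBP2, -0.16 to 0.17 for IGFBP3, -0.12 to 0.07 for IGFBP5 and -0.09 to 0.01 for IGFBP7 in sham-operated pigs. When the IR effect was compared between zones, it gave -0.17 to 0.70 for IGF1, -0.20 to 0.05 for IGF2R and -0.28 to 0.61 for IGFBP2. The 96 shares of binding proteins recomputed without 1 pig stayed within 1 SD.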

Other observations

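Some further genes of the IGF lists were read after their values were seen. HTRA1, a serine protease that cuts IGFBP5, was at 290 and 216 CPM in the IR scar zone of males 9 and 11, at 115 and 85.7 CPM in females 2 and 14, and at 108 to 149 CPM in the sham scar zone. CDKN1C, an imprinted inhibitor of the cell cycle, was at 5.64 to 6.82 CPM in the IR scar zone and 6.89 to 14.4 CPM in the sham scar zone, with a log2 fold change of -0.66 (SE 0.23, edgeR adjusted p = 0.438) that was -0.41 without pig 4. The insulin receptor INSR had an unadjusted p of 0.0384 in the border zone, with a log2 fold change of 0.32 (SE 0.13, edgeR adjusted p = 0.988).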
